A study of Nicotiana tabacum with 39 samples.

Results

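Of 53725 transcripts counted in leaves of cultivated tobacco, Nicotiana tabacum, 13 had group means at 4 h and 8 h after a return to light that stood well above those at the end of darkness, at 16 h and in untreated leaves. They were chosen from the counts themselves. A transcript had to have its highest group mean at 4 h or 8 h and at least 5 CPM (counts scaled to a library total of 1e6) at both times. The lower of these 2 means also had to be at least 3 times the mean in control, at the end of darkness (0 min) and at 16 h, with 0.1 added to each mean. Up to 200 transcripts could have been taken, and 13 met the rule. They are called here by their rank, from 1 to 13, under the ratio of the lower of the 4 h and 8 h means to the highest of the other 3 means, and the higher of the 4 h and 8 h means is called the peak. CPM are not divided by transcript length, so levels are compared within a transcript and not between transcripts.

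The study followed leaves through de-etiolation, the greening that follows a return to light, and there were 13 groups of 3 libraries. The control group had no extended darkness, and the other 12 groups came from plants kept in extended darkness. Of these 12, 1 was taken at the end of darkness and 11 after the return to light. Light had then lasted 5, 10 and 30 min, 1, 2, 4, 8, 16, 40 and 64 h and 6720 min. All plants had been grown on soil under 16 h of light per day, and each library pools leaf middles from 3 plants, 2 young leaves per plant. Plant age, how long the darkness lasted and the clock time of the control harvest could not be read from the labels. No dark plants were sampled at the light times, so light, time of day and leaf growth cannot be told apart at 4 h and 8 h. The times 16, 40 and 64 h and 6720 min lie whole days apart and share a clock time, which 4 h and 8 h do not share. Library totals ran from 15844109 to 37269515 counts. In bulk leaf samples, fewer cells of a type and less RNA per cell cannot be told apart.

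In dark-kept leaves plastids rest as etioplasts, which hold the membrane lattice and the protochlorophyllide from which chloroplast membranes and chlorophyll are formed in light. Phytochromes and cryptochromes, the red and blue light receptors, act on transcription soon after illumination, and genes for the photosynthetic apparatus, for protection from excess light and for plastid building follow in waves. Many leaf transcripts also cycle with the circadian clock and peak at one part of the day. Which of these programs the 13 transcripts belong to cannot be given, since the counts are keyed by NCBI GI number and none of these numbers (0 matches) is in the reference table of 79372 genes. No role, chromosome or sequence is therefore printed. The lists of leaf cell type markers and pathways could not be applied, so the labelled leaf tissue was not checked against markers.

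Few transcripts combined the 3 requirements. Of 53725 transcripts 8974 had their highest mean at 4 h or 8 h, and 4932 of these held at least 5 CPM at both times. In these 4932, the lower of both means was at least 3 times the 0 min level in 420, at least 3 times control in 108 and at least 3 times the 16 h level in 30. Control and 0 min were passed together by 51, control and 16 h by 23, and 0 min and 16 h by 16. The median ratio over the 4932 was 1.13. A ratio of at least 2 was held by 2.27% of them. Among the 13 members the highest of the 3 low groups was 16 h in 8, 0 min in 3 and control in 2.

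Ratios ran from 11.6 at rank 1 through 10.7 and 10.4 at ranks 2 and 3 to 3.78 at rank 4, and then closely down to 3.02 at rank 13. Rank 13, the last inside the limit, had means of 11.0 CPM at 4 h and 9.98 CPM at 8 h against 3.19 in control, 2.65 at 0 min and 3.23 at 16 h. The first transcript outside had a ratio of 2.94, with 20.6 CPM at 4 h and 19.6 CPM at 8 h against 4.29 in control, 3.02 at 0 min and 6.61 at 16 h. These levels chose the members and are a description.

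Libraries of 1 group did not always show the same peak, which bears on each value that follows. At 4 h, replicate 3 was the lowest library for 11 of 13 members and replicate 2 for the remaining 2. At 8 h the lowest library was replicate 1 for 5 members, replicate 2 for 4 and replicate 3 for 4. Across all tested transcripts, the mean correlation of 4 h replicate 3 with the other libraries of its group was 0.975 and that of 8 h replicate 3 was 0.974, within the range of 0.955 to 0.985 over the 39 libraries. The coefficient of variation at 4 h had a median of 35.6% in members against 13.3% in the 4932 transcripts, and at 8 h 40.8% against 14.8%. Applied without 4 h replicate 3, the rule took 28 transcripts, the 13 members among them. Without 4 h replicate 2 it took 23, with 10 of the 13 among them. Whether library preparation had a part in these differences was not tested.

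**Figure D1:**
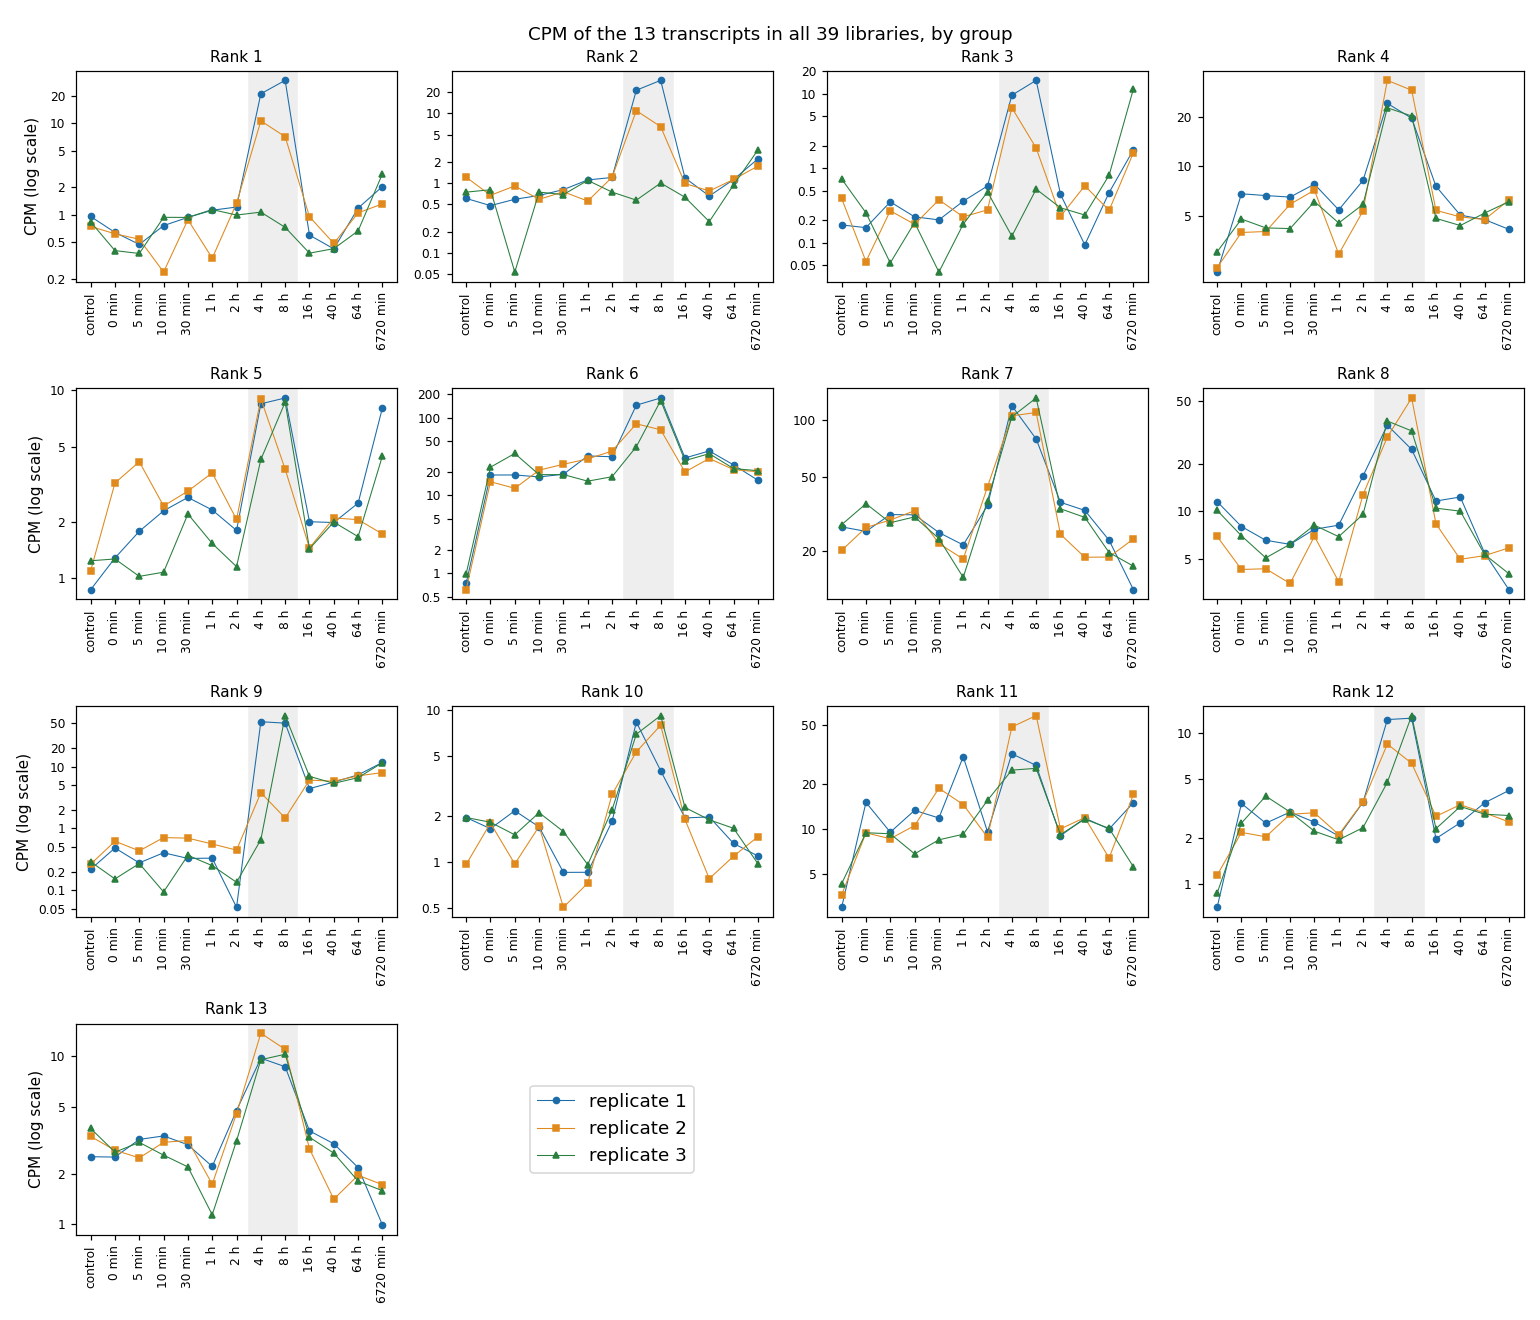
CPM (log axis, different range in each panel) of the 13 members in the 39 libraries, with 1 line and marker shape per replicate number, groups in order of time and 4 h and 8 h shaded. Ranks 4, 7, 8, 10 and 13 are high in all 6 shaded libraries, whereas at ranks 1 to 3 replicate 3 stays between 0.123 and 1.07 CPM there.

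In 9 of 13 members all 6 libraries of 4 h and 8 h lay above all 9 libraries of control, 0 min and 16 h, which held for 3.7% of the 42181 tested transcripts. In 7 of them (ranks 4, 6, 7, 8, 10, 12 and 13) the 6 libraries lay above all 33 others, which held for 1.19%. The rule used these levels, so nothing is read from these counts. Ranks 5 and 11 were apart from the 9 libraries but not from the 33. At rank 5 the highest other library was 6720 min replicate 1, with 8.04 CPM, and at rank 11 it was 1 h replicate 1, with 30.6 CPM. Ranks 1, 2, 3 and 9 overlapped with the 9 libraries.

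Rank 7 (GI 698536698) showed one of the even peaks. It stood at 119.8, 106 and 104 CPM in replicates 1, 2 and 3 at 4 h and at 79.6, 110.2 and 132 CPM at 8 h. Levels were 27.0, 20.2 and 27.7 CPM in control, 25.5, 26.8 and 35.9 CPM at 0 min, and 36.5, 24.7 and 33.7 CPM at 16 h. All 6 peak libraries were thus above every other library, the highest of which reached 44.3 CPM (2 h replicate 2). Its GI number and that of rank 1 were picked for printing after their values were seen, because no member met the rule for printing a number, which asked for a change between 4 h and 8 h.

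Rank 4 was similarly even across libraries, with 24.0, 33.1 and 22.6 CPM at 4 h and 19.5, 28.8 and 20.2 CPM at 8 h. Its 16 h libraries held 7.59, 5.44 and 4.86 CPM and its control libraries 2.31, 2.46 and 3.06 CPM. Replicate 2 was the highest library at both peak times, and no peak library came near the highest of the 33 others, at 8.24 CPM.

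Rank 8 held 35.3, 29.7 and 37.5 CPM at 4 h and 24.8, 52.5 and 32.5 CPM at 8 h, against 11.6, 8.34 and 10.5 CPM at 16 h. Rank 10 held 8.29, 5.29 and 6.91 CPM at 4 h and 3.98, 7.90 and 9.15 CPM at 8 h, against 1.95, 1.90 and 2.28 CPM at 16 h. At 8 h replicate 1 was the lowest library for both, as it was for ranks 4, 7 and 13. Rank 13 held 9.74, 13.7 and 9.54 CPM at 4 h and 8.66, 11.0 and 10.3 CPM at 8 h, with a lowest peak library 1.58 times below its highest.

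Rank 6 was less even. It stood at 145, 83.5 and 42.4 CPM at 4 h and at 179.6, 70.1 and 166 CPM at 8 h. At 4 h replicate 3 was the low library, and at 8 h replicate 2 was. Rank 12 had the same lowest libraries, with 12.4, 8.50 and 4.73 CPM at 4 h and 12.6, 6.33 and 13.2 CPM at 8 h. Rank 5 held 8.45, 8.98 and 4.28 CPM at 4 h and 9.07, 3.80 and 8.62 CPM at 8 h, again lowest in replicate 3 at 4 h and in replicate 2 at 8 h. At rank 11 replicate 2 was the high one, with 32.0, 48.4 and 24.9 CPM at 4 h and 26.7, 57.6 and 25.6 CPM at 8 h.

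At ranks 1 to 3, those with the highest ratios, the peak was carried by replicates 1 and 2. Rank 1 (GI 698543519) stood at 21.0, 10.6 and 1.07 CPM in replicates 1, 2 and 3 at 4 h and at 29.5, 7.14 and 0.728 CPM at 8 h. Its 9 libraries of control, 0 min and 16 h reached at most 0.958 CPM, so that replicate 3 was within or next to their range at both times. Rank 2 held 21.5, 11.0 and 0.576 CPM at 4 h and 29.8, 6.48 and 1.01 CPM at 8 h. Rank 3 held 9.58, 6.51 and 0.123 CPM at 4 h and 15.2, 1.87 and 0.526 CPM at 8 h. For all 3, replicate 1 was highest, replicate 2 was in between and replicate 3 was lowest at both times, and for ranks 1 and 2 the lowest peak library was 40.5 and 51.7 times below the highest. Against control, 0 min and 16 h, the peak of ranks 1 to 3 therefore holds in the libraries numbered 1 and 2 at each time. It does not hold in those numbered 3. At rank 3, 8 h replicate 2 (1.87 CPM) was close to 6720 min replicates 1 and 2 (1.77 and 1.62 CPM). Replicate 3 at 6720 min held 11.6 CPM.

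Rank 9 split in a different way. At 4 h it held 53.1, 3.77 and 0.658 CPM and at 8 h 50.3, 1.47 and 66.7 CPM. Replicate 1 was high at both times and replicate 3 at 8 h. Replicates 2 and 3 at 4 h and replicate 2 at 8 h lay below all 3 libraries of 16 h. Those held 4.40, 6.03 and 6.93 CPM. Its group mean at 4 h was 48.5% of its mean at 8 h, the lowest such share of the 13.

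**Figure D2:**
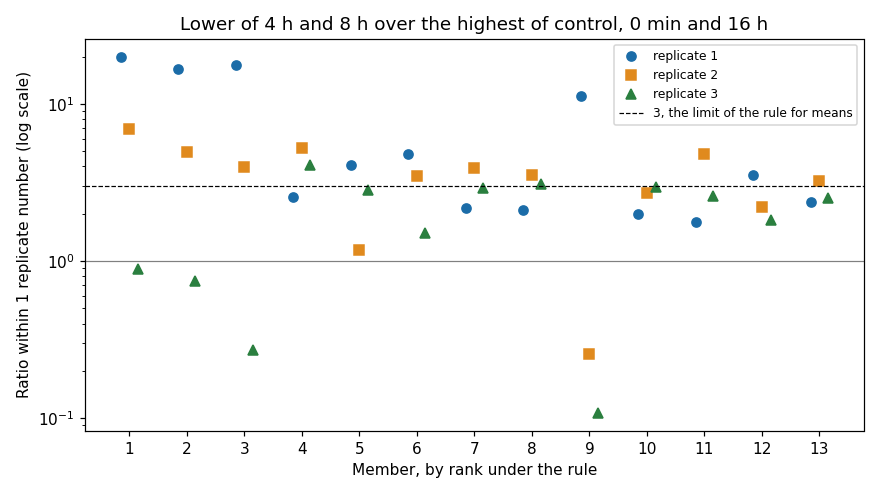
Ratio of the lower of 4 h and 8 h to the highest of control, 0 min and 16 h (log axis, 0.1 CPM added) for each member, taken within 1 replicate number at a time. The dashed line marks 3 and the grey line 1. Replicate 3 lies below 1 at ranks 1, 2, 3 and 9, and no member has all 3 points at or above 3.

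Within single replicate numbers the ratio was above 1 in 13 of 13 members in replicate 1, in 12 in replicate 2 and in 9 in replicate 3. It was at least 3 in 7, 9 and 2 members, with medians of 3.54, 3.53 and 2.52. No member (0 of 13) reached 3 in all 3 replicate numbers. A ratio of single libraries takes a minimum of 2 and a maximum of 3 values and is on average lower than one of means. Shared numbers only group the libraries here, and no course in the same plants is read from them.

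When the rule was applied to 2 replicate numbers and the ratio was measured in the remaining one, the choice carried over in part. Chosen without replicate 1, 8 transcripts had a median ratio of 3.66 in the libraries that chose them and 2.11 in replicate 1, where 7 of the 8 were above 1 and 0 reached 3. Chosen without replicate 2, 15 transcripts had medians of 3.55 and 1.33, with 9 above 1 and 5 at 3 or more. Chosen without replicate 3, 30 transcripts had medians of 3.47 and 0.702, with 11 above 1 and 2 at 3 or more. Of these lists 4 of 8, 8 of 15 and 11 of 30 were among the 13 members. The composition of the set thus rested on which libraries entered.

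Before the peak, the median share of the peak lay near that at the end of darkness, while single members moved either way. Their 2 h means ran from 0.60 times (rank 9) to 2.13 times (rank 3) those at 0 min (0.1 CPM added), both at low counts. As a percent of the peak, the median member held 19.7% (0 min), 18.8% (5 min), 20.9% (10 min), 20.8% (30 min) and 16.3% (1 h). The share was then 24.5% (2 h), 93.4% (4 h) and 100% (8 h). Up to 2 h the highest share of any member was 49.6%, reached by rank 11 at 1 h. Means of at least 50% of the peak were first reached at 4 h by 12 members and at 8 h by rank 9. Ranks 1, 2, 3 and 9 did not pass 10% of the peak before 4 h, whereas the other 9 were above 10% at 5 min already.

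**Figure D3:**
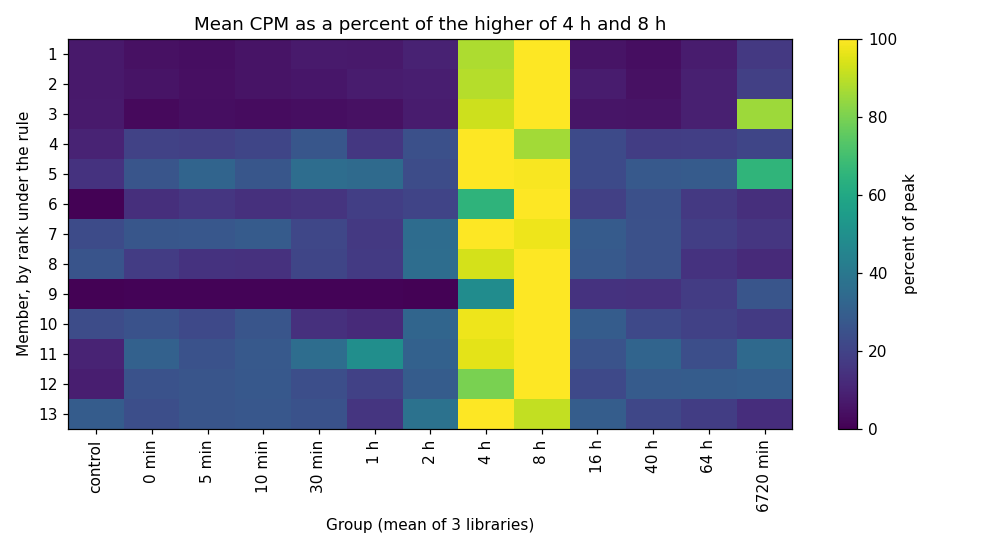
Group means of the 13 members as a percent of the higher of the 4 h and 8 h means, with members in rows by rank and groups in columns by time. The bright columns are 4 h and 8 h, and the brightest fields outside them are 6720 min at rank 3 (85.5%) and at rank 5 (65.5%).

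The steps from 10 to 30 min and from 30 min to 1 h were tested to see whether any member had moved early. The rule used the light times up to 2 h only as an upper bound. Between 10 and 30 min no member was called higher (0 of 13) where 2.83% of tested transcripts were, and none lower (0 of 13) where 3.32% were, with 2 members at an unadjusted p below 0.05. Log2 differences ran from -0.88 to 0.51, with a median of 0.14 against 0.018 over all tested transcripts. Between 30 min and 1 h no member was called either (0 higher and 0 lower) against 5.2% and 4.4% of transcripts, again with 2 at an unadjusted p below 0.05. DESeq2 called 0 members in both steps. The smallest adjusted p was 0.0861 (edgeR), for rank 4, whose libraries held 7.82, 7.20 and 6.14 CPM at 30 min and 5.47, 2.96 and 4.56 CPM at 1 h.

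Between 1 and 2 h 4 of 13 members rose, against 7.2% of tested transcripts, and 0 fell, against 8.52%. The median difference of the 13 was 0.60 on the log2 scale, beside -0.0090 over all. The 4 were ranks 7, 8, 10 and 13. At 1 h the means of ranks 7, 10 and 13 (18.1, 0.849 and 1.69 CPM) were below those at 0 min (29.4, 1.76 and 2.65 CPM). Their 2 h means were 1.32, 1.28 and 1.54 times those at 0 min, and that of rank 8 was 2.01 times (0.1 CPM added). The rule bounded 0 min from above, so these multiples are a description. Rank 7 went from 21.6, 18.2 and 14.5 CPM at 1 h to 35.1, 44.3 and 37.3 CPM at 2 h, with no overlap (log2 1.12, SE 0.21, adjusted p = 0.000453, edgeR). Rank 13 went from 2.21, 1.73 and 1.14 CPM to 4.75, 4.55 and 3.14 CPM (log2 1.30, SE 0.25, adjusted p = 0.00055, edgeR), higher in 3 of 3 libraries. These 2 members kept their calls in all settings tried.

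Ranks 8 and 10 also rose from 1 h to 2 h. Rank 10 held 0.857, 0.727 and 0.962 CPM at 1 h and 1.85, 2.78 and 2.20 CPM at 2 h, without overlap (log2 1.43, SE 0.34, adjusted p = 0.0045, edgeR). Rank 8 held 8.17, 3.58 and 6.91 CPM and then 16.8, 12.8 and 9.58 CPM, also without overlap (log2 1.08, SE 0.28, adjusted p = 0.00782, edgeR). Without replicate 1 of all groups the adjusted p was 0.0528 for rank 10 and 0.0689 for rank 8 (edgeR). In that setting 2 members were called in place of 4, with 898 transcripts higher and 1101 lower over all. Without replicate 3 that of rank 8 was 0.0629 (edgeR), and rank 11 was called lower (log2 -1.30). DESeq2 called 5, with rank 4 in addition (adjusted p = 0.0448), and 3663 transcripts higher and 3447 lower over all. All 4 called by edgeR were members whose 6 peak libraries lay above the 33 others, and of ranks 1 to 3 and 9 none was called in this step, at levels of at most 1.33 CPM.

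Between 2 h and 4 h the group means went up by 2.60-fold at rank 8 to 62.0-fold at rank 9 (0.1 CPM added). The 4 h mean of rank 9 was carried by replicate 1, with 53.1 CPM against 3.77 and 0.658 CPM in replicates 2 and 3. Its 2 h libraries held 1, 8 and 5 counts. For ranks 1 to 3 these folds were 8.60, 9.57 and 10.1, and for ranks 4 to 8 and 10 to 13 they lay at 4.15 or below. The 4 h level chose the members, so no test is given. The 13 members together held 113 ± 14.2 CPM (2 h), 376 ± 120.5 CPM (4 h), 447 ± 70.8 CPM (8 h) and 100.4 ± 13.2 CPM (16 h; SD, n = 3).

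Whether the 13 were higher at 4 h or at 8 h was tested next, since the rule treats both times alike and limits only how far apart they can lie. Group means were higher at 8 h for 9 members and at 4 h for 4. By edgeR no member was called (0 higher and 0 lower), and neither was any of the 42181 tested transcripts (0% higher and 0% lower), with 1174 transcripts and 0 members at an unadjusted p below 0.05. DESeq2 called 1 transcript lower, which was no member. Log2 differences of members ran from -0.22 at rank 4 to 1.13 at rank 9, with a median of 0.091. For rank 9 the SE was 0.77, and it was 1.39 in a fit of the 6 libraries of 4 h and 8 h only (edgeR). Without 4 h replicate 1 the difference was 4.19 (adjusted p = 0.0229, edgeR), where 30 transcripts were called higher and 47 lower over all. Without 8 h replicate 2 these counts were 2 and 43, with 0 members. Leaving out any 1 of the 6 libraries kept the sign of rank 9, and leaving replicate 3 out of all groups turned it (-0.11, adjusted p = 1, edgeR). Rank 6 differed by 0.65 (SE 0.35) and rank 7 by -0.026 (SE 0.20). A p that misses the threshold does not show equal levels at both times.

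**Figure D4:**
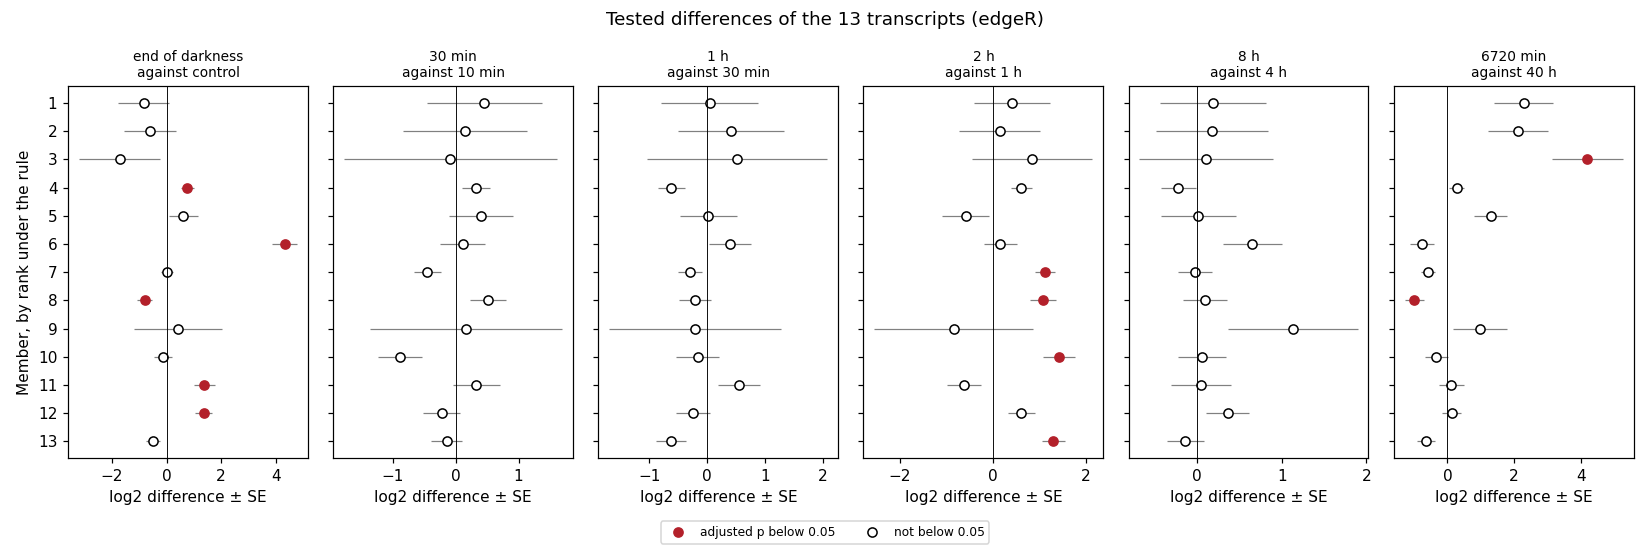
Log2 differences with SE of the 13 members in the 6 tested comparisons, with filled red points at an adjusted p below 0.05 (edgeR) and open points otherwise, on a different scale in each panel. Filled points stand at 5 members for the end of darkness against control, 4 for 2 h against 1 h and 2 for 6720 min against 40 h, and at none in the other 3 panels. The rule used both levels behind the end of darkness against control, so those points are a description.

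By 16 h the means had come down to between 5.17% (rank 1) and 29.4% (rank 13) of the peak. Set against 8 h, the 16 h means were lower by 3.02-fold at rank 13 to 16.9-fold at rank 1 (0.1 CPM added). The rule asked for a fall of this kind. It also bounded the 16 h and control means from above, so the multiples of control that follow are a description. Rank 13 stood at 1.01 times and rank 8 at 1.06 times its control level at 16 h, and ranks 1 and 3 at 0.786 and 0.80 times. Rank 6 stood at 29.9 times and rank 9 at 16.5 times its control level (0.1 CPM added).

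The rule bounded both control and 0 min from above when it chose the members, so their difference is not independent of it, and nothing is read from the share called. By edgeR at an adjusted p below 0.05, 4 of 13 members were called higher at the end of darkness than in control, where 25.6% of tested transcripts were, and 1 of 13 was called lower, where 24% were. Rank 6 had the largest difference, with 0.740, 0.614 and 0.980 CPM in control and 18.3, 15.0 and 23.1 CPM at 0 min (log2 4.32, SE 0.46). No later library of rank 6 came below 12.4 CPM. Rank 11 held 3.00, 3.64 and 4.33 CPM in control and 15.1, 9.46 and 9.48 CPM at 0 min, and rank 12 held 0.697, 1.14 and 0.865 CPM and then 3.42, 2.20 and 2.54 CPM, both without overlap. They stood 1.39 and 1.36 higher on the log2 scale. Rank 4, with 6.84, 4.00 and 4.82 CPM at 0 min, stood higher by 0.75. Without replicate 1 of all groups ranks 4 and 11 were not called. Rank 8 held 11.5, 6.93 and 10.2 CPM in control and 8.02, 4.28 and 6.997 CPM at 0 min, with overlap. Its log2 difference was -0.81, and it was not called with scaling by library size only (log2 -0.57), without replicate 1 or without replicate 3. Scaling by library size only moved the median of all transcripts in this comparison from 0.027 to 0.25. The median of the 13 was 0.011, became 0.23 with that scaling and -0.023 with DESeq2.

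From 16 h on most members stayed low at the shared clock time. The median share of the peak was 22.5% (16 h), 22.1% (40 h), 18.0% (64 h) and 18.8% (6720 min). At 40 and 64 h no member passed 32.3% and 29.0% of its peak. At 6720 min ranks 3 and 5 were above 50%, at 85.5% and 65.5%, and the remaining 11 were not. A peak on the later days at the clock times of the 4 h and 8 h harvests could not be seen, since no later library was taken at those clock times.

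Between 40 h and 6720 min 1 member rose, against 7.89% of tested transcripts, and 1 fell, against 9.05%. Rank 3 went from 0.0942, 0.584 and 0.237 CPM to 1.77, 1.62 and 11.6 CPM, without overlap (log2 4.19, SE 1.06, adjusted p = 0.00576, edgeR). Replicate 3, the library number that lacked the peak at 4 h and 8 h, was the highest at 6720 min. Without replicate 3 of all groups the difference was 2.32 (adjusted p = 0.115, edgeR). Without replicate 1 it stayed near its size, at 4.15 (SE 1.18, adjusted p = 0.098, edgeR). Calls over all transcripts fell in that setting too, to 150 higher and 201 lower. The call of rank 3 was lost in both cases.

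Rank 8 held 12.3, 4.96 and 10.0 CPM at 40 h, 5.44, 5.24 and 5.33 CPM at 64 h and 3.18, 5.87 and 4.02 CPM at 6720 min, and the libraries of 40 h and 6720 min overlapped. Its fall from 40 h to 6720 min came to 0.995 on the log2 scale (SE 0.29, adjusted p = 0.016, edgeR). It was lost without replicate 1 (log2 -0.54, adjusted p = 0.519, edgeR) and without replicate 3 (log2 -0.92, adjusted p = 0.248, edgeR). No member was called without replicate 1 or without replicate 3 (0 in each case), and 5 were called without replicate 2. Over all tested transcripts the calls moved as well, from 3326 higher and 3819 lower to 150 and 201 without replicate 1, 1070 and 1084 without replicate 3 and 4471 and 5468 without replicate 2.

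Rank 1 stood at 0.424, 0.487 and 0.426 CPM at 40 h and 2.04, 1.32 and 2.80 CPM at 6720 min. This missed the threshold in the fit used throughout (log2 2.29, SE 0.89, adjusted p = 0.0718, edgeR) and passed it with DESeq2 (adjusted p = 0.028) and with the replicate block (adjusted p = 0.0446, edgeR). Rank 5 stood at 1.98, 2.09 and 1.99 CPM at 40 h and 8.04, 1.72 and 4.47 CPM at 6720 min, where replicate 2 did not share the higher level (log2 1.30, SE 0.49, adjusted p = 0.0634, edgeR). It passed with DESeq2 (adjusted p = 0.0496) and the replicate block (adjusted p = 0.0383, edgeR). DESeq2 called 5 members in this comparison, with 3387 transcripts higher and 4020 lower over all, and the replicate block called 4, with 4539 and 4552 over all.

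Rank 9 kept a level of its own after the peak. Up to 2 h its libraries held at most 0.709 CPM, and from 16 h on they held at least 4.40 CPM. At 6720 min they reached 11.6, 7.99 and 11.5 CPM, or 26.3% of the peak by group means. The difference between 6720 min and 40 h was 0.98 (SE 0.81, adjusted p = 0.449, edgeR). The replicate 2 libraries held 3.77 CPM at 4 h and 1.47 CPM at 8 h, and none of that number came near 50 CPM. Libraries of 1 number at different times are separate samples, so no course over time is read from them.

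Members varied with each other to different degrees. Over 39 libraries the 78 pairs of members had Pearson correlations of log2(CPM + 1) from 0.26 to 0.98, with a median of 0.60, and 16 pairs were above 0.8. Every pair shares the high 4 h and 8 h means that the rule asked for and the depth of each library, so these values are a description. The highest values were 0.98 between ranks 1 and 2, 0.96 between ranks 7 and 13, 0.94 between ranks 7 and 10, and 0.90 between ranks 2 and 3.

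Identifiers next to each other in the deposited order made up 2 pairs among the members. Ranks 1 and 2 are neighbours whose numbers differ by 3, and ranks 10 and 13 are neighbours whose numbers differ by 2 and whose correlation was 0.88. Ranks 1 and 2 had nearly the same CPM in replicate 1, with 21.0 and 21.5 at 4 h and 29.5 and 29.8 at 8 h, and were further apart in replicate 3, with 1.07 and 0.576 at 4 h and 0.728 and 1.01 at 8 h. Whether reads were shared between such neighbours was not tested. Counting each pair once, the 13 members stand at 11 separate places in the order. The next neighbour of rank 1, also 3 numbers away, was no member and had a correlation of 0.15 with it.

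Some members had many transcripts of like course in the series and others few. Rank 8 had a correlation above 0.9 with 278 of the other tested transcripts, all 278 with their highest mean at 4 h or 8 h and 0 of them members. Rank 13 had 21 such transcripts (1 of them a member), rank 7 19 (2 members), rank 9 11 (0), rank 6 10 (0) and rank 10 8 (1). Ranks 1 and 2 had 4 each and rank 3 had 1, other members included, and for rank 1 3 of the 4 were under 5 CPM at 4 h or 8 h and could not enter the set. Ranks 4, 5, 11 and 12 had none (0) above 0.9, and the closest transcript to each had a correlation of 0.886, 0.825, 0.823 and 0.895.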

How the data were processed

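Each of the 39 deposited tables holds whole-number counts per transcript, 1 library each, with no normalization visible in the values. Per the labels' protocols, TruSeq libraries of polyA RNA were sequenced as single-end 100 bp reads. The submitters' processing notes list FastQC 0.10.1, BWA 0.70 and SAMtools 1.0 but no steps. How reads were counted, against which reference, and what became of multi-mapping reads is not given in these sources, and reads shared between near-identical copies may have been split. Part of the extraction text describes another design and was not used.

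CPM were computed from library totals. In R 4.3.3, edgeR 4.0.16 with its filterByExpr (at least 10 counts, total of at least 15) left 42181 transcripts, all 13 members among them. TMM-scaled counts were fitted with a quasi-likelihood model of 13 group means over 39 libraries. P-values were adjusted by Benjamini-Hochberg across all tested transcripts, and a call needs an adjusted p below 0.05. The SE is the absolute log2 difference divided by the square root of F. The fit was also run on simulated counts with 1 spread for all transcripts. Ranks 1 to 3 and 9 varied more widely at 4 h and 8 h, so the simulation does not cover them. Replicates are pools of separate plants as far as the labels say, and p-values measure the spread between pools.

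Same-numbered libraries deviated together, at correlations of 0.38, 0.40 and 0.70, between 30 min and 1 h. There the replicate block changed no call of a member. Over all tested transcripts it moved the calls in this step from 2194 higher and 1857 lower to 2809 and 2524. Alternatives were DESeq2 1.42.0, library size scaling, no count filter, a replicate block and left-out libraries. The members and lists were chosen with earlier results of these data known. The rule for printing an identifier asked for a called change between 4 h and 8 h, at least 10 CPM and no overlap, and no member met it. CPM intervals would cover counting error only and are not given.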

Additional observations from a re-analysis of the deposited data

Results flagged for a closer look

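Differences between 2 times in light brought up 6 results, each from a test of one time against the other (edgeR). From 1 h to 2 h the log2 differences were 1.12 at rank 7, 1.08 at rank 8, 1.43 at rank 10 and 1.30 at rank 13. Against 0 min, the 2 h means of these ranks stood at 1.32, 2.01, 1.28 and 1.54 times (0.1 CPM added). From 40 h to 6720 min, at the same clock time, the log2 differences were 4.19 at rank 3 and -0.995 at rank 8. Groups of 3 libraries are too small for the search for single outlying samples, so none was made.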

How the results depend on the processing

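The number of members rested on the choice of the rule's settings. It was 13 as reported, 11 with TMM-scaled CPM (all 11 among the 13), 7 with 1 added to each mean (all 7 among the 13), and 8 to 30 when 1 replicate number was left out of all groups. Chosen after seeing the data, a ratio of at least 2.5 gave 28, and leaving out 1 library of 4 h or 8 h gave 10 to 28, with 23 without 4 h replicate 2 and 28 without 4 h replicate 3.

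Calls between 8 h and 4 h stayed at 0 members in the settings run, except that 1 (rank 9, log2 4.19) was called without 4 h replicate 1 (range 0 to 1 over left-out libraries). Calls between 2 h and 1 h were 4, with 5 by DESeq2, and 2 to 4 without 1 replicate number (rank 11 then at -1.30 without replicate 3). Over all tested transcripts the main fit called 7.2% higher and 8.52% lower. Without 1 replicate number it was 898 to 2389 transcripts higher and 1101 to 2077 lower. For 6720 min against 40 h there were 2, with 5 by DESeq2, 4 with the replicate block and 0 to 5 without 1 replicate number. The main fit called 7.89% of tested transcripts higher and 9.05% lower here. Without 1 replicate number it was 150 to 4471 transcripts higher and 201 to 5468 lower. For the end of darkness against control there were 5, and 2 to 5 without 1 replicate number. The main fit called 25.6% of tested transcripts higher and 24% lower here. Without 1 replicate number it was 7683 to 9028 transcripts higher and 7175 to 9795 lower. The rule used both of these levels, so the member counts are a description. There were 18 member differences called in any setting, and some of these were not called in the main fit. In direction and in being called or not called, 107 values matched the main fit. Values called in neither fit count among these 107, so they are not all calls that were kept. Of the rest, 12 lost the call, 12 gained it and 2 turned. The 2 were rank 9 at 8 h against 4 h, -0.11 without replicate 3, and rank 11 at 2 h against 1 h, 0.029 without replicate 1. The causes were not tested.

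The main fit did not pair libraries by number. Over all tested comparisons, 11 of 18 library pairs correlated best with their own number, the 3 of the step from 30 min to 1 h among them. Outside that step, at least 1 correlation between same-numbered libraries was under 0.1 in each comparison, which does not settle whether numbers pair the libraries. They were 0.12, 0.12 and 0.041 for 8 h against 4 h, 0.021, 0.44 and 0.54 for 30 min against 10 min, 0.064, 0.18 and 0.28 for 2 h against 1 h, -0.14, -0.10 and 0.083 for 6720 min against 40 h, and 0.12, 0.35 and -0.036 for the end of darkness against control. In the step from 1 h to 2 h all 3 libraries correlated best with their own number, a hint from the data and not the design. The replicate block changed no count of members other than that at 6720 min. Over all tested transcripts it gave more calls in every comparison but 8 h against 4 h, which stayed at 0. From 1 h to 2 h it called 4278 higher and 4733 lower, in place of 3037 and 3594. Before 4 h ranks 1 to 3 and rank 9 held few counts per library, down to 1, which limits their folds.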
